A study of Mus musculus with 2744 samples.

Results

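Day 6 eGFP++ cells were examined by whether or not they held transcripts of Lhx3. The 4 plates whose labels carry eGFP++ held 96 cells each on RPI46, RPI47 and RPI9 of the main experiment and 40 on TM014 of the pilot, together 11.95% of the 2744 cells of the series. Of these, 94, 95, 94 and 39 had at least 500 genes with a read and were kept. Levels are given as CPM, a gene's reads per 1000000 gene reads of a cell or of a sum of cells, without spike-ins. Cells were selected on Lhx3 itself. Lhx3 was at 100 CPM or more in 50, 39, 34 and 12 cells of RPI46, RPI47, RPI9 and TM014, called Lhx3-high cells, and had 0 reads in 20, 33, 53 and 19 cells, called Lhx3-zero cells. The other 62 kept cells had at least 1 Lhx3 read but under 100 CPM.

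All cells came from mouse embryonic stem cells differentiated in culture towards motor neurons, in a main and a pilot experiment sampled daily from Day 2 to Day 6. Embryoid bodies were dissociated with papain and single cells were sorted into 96-well plates for CEL-seq, which counts reads from the 3′ end of transcripts. The Lhx3-high and the Lhx3-zero cells came from the same 4 plates. Both classes therefore share the Day 6 stage, the culture and the eGFP++ sort. The labels name neither the gene that drives eGFP nor the cell line, its genotype or how eGFP+ and eGFP++ were gated. The unselected Day 6 plates and 1 eGFP+ plate of the main experiment served for comparison.

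Lhx3 is a LIM-homeodomain transcription factor. With Isl1 and the adaptor Ldb1 it forms the complex that drives the motor neuron programme in newborn cells, and with Ldb1 alone it acts in V2a interneurons. In the embryonic spinal cord, Lhx3 is kept by motor neurons of the medial column, which innervate axial muscle, and is lost from those of the lateral columns, which innervate the limb and depend on Foxp1. The factors recognise DNA through a homeodomain whose core site is TAAT.

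The promoters of 3 motor neuron markers, Lhx3, Isl1 and Slc18a3 (the vesicular acetylcholine transporter), are shown. Of these genes only Lhx3 was used to set the Lhx3-high and Lhx3-zero classes. The letters are RefSeq sequence of build GRCm38.p6, 250 bases before to 50 bases after each start, on the gene's strand, which is the minus strand for all 4. Capitals mark TAAT, or ATTA for its match on the other strand. Lhx3 has a pair of annotated starts, and 3′ reads do not tell which was used.
Lhx3, chr2:26208200-26208499: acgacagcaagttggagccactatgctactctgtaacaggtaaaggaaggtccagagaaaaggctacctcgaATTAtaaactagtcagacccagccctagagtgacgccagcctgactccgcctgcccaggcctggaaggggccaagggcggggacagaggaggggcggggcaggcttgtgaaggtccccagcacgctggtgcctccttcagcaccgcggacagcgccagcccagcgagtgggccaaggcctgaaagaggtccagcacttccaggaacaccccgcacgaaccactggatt
Lhx3, chr2:26206526-26206825: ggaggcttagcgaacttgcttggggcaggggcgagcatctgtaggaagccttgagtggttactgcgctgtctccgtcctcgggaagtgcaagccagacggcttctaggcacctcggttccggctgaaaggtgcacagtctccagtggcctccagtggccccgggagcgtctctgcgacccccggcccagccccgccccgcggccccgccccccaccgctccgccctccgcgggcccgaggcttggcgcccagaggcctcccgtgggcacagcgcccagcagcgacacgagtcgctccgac
Isl1, chr13:116309639-116309938: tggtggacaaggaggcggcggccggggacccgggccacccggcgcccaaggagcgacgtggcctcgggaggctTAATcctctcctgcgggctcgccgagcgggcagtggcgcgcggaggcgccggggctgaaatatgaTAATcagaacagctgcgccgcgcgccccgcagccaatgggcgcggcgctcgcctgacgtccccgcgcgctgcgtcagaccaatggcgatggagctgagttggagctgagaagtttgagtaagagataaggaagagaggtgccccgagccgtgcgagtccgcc
Slc18a3, chr14:32464801-32465100: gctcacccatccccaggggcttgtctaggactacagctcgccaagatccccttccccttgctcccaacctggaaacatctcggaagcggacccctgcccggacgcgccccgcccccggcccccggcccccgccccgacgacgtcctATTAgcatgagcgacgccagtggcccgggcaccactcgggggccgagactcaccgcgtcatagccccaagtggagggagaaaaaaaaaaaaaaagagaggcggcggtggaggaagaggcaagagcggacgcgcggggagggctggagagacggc
The upstream Lhx3 promoter held 1 match and the downstream one 0, Isl1 had 2 and Slc18a3 1. The core occurred in 58.03% of 32851 promoters of the same length, so a match is common. Slc18a3 (chr14:32462438-32464850) lies within the span of Chat (chr14:32408203-32465989) on the same strand in the GENCODE annotation of this build, and reads of the 2 genes are separable only as far as the deposited counting allowed.

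Pooled over the plates, Lhx3 was graded rather than split cleanly by the threshold. In Lhx3-high cells it ranged from 100.9 to 3463 CPM with a median of 569 CPM, or 88 reads. In the cells between the classes it ranged from 1.49 to 95.2 CPM with a median of 18.5 CPM, or 4 reads. Just inside the threshold lay 24 cells at 100 to 200 CPM, and just outside it 13 cells at 50 to 100 CPM. The plates differed in this. The cells between numbered 24 on RPI46, 23 on RPI47, 7 on RPI9 and 8 on TM014. On TM014 they reached at most 60.2 CPM, and the lowest Lhx3-high cell was at 211.1 CPM. A Lhx3-zero cell of median depth would have yielded 3 reads at 18.6 CPM, so 0 reads allows a level up to about that of the cells between. The limit covers counting error only, since reads without molecular identifiers are not independent molecules.

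**Figure D1:**
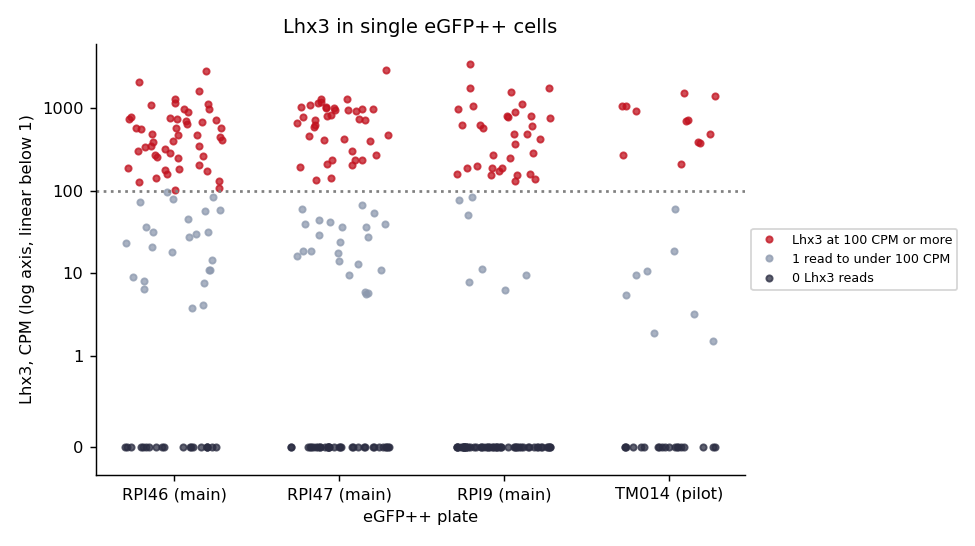
Lhx3 level of each kept eGFP++ cell by plate, in CPM on a log axis that is linear below 1. Each point is a cell, 39 to 95 a plate; red cells are at 100 CPM or more (dotted line), grey cells lie between and dark cells have 0 reads, and all 3 kinds are seen in every plate.

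Lhx3-high cells made up 53.2% of the kept cells on RPI46, 41.1% on RPI47, 36.2% on RPI9 and 30.8% on TM014. Pooled within an experiment, their share was 43.5% in main (95% Wilson interval 37.8 to 49.3%) and 30.8% in pilot (18.6 to 46.4%). The share was 13.3% on the eGFP+ plate (7.56 to 22.2%, 83 cells). Unselected Day 6 cells had 21.8% (17.8 to 26.3%, 87 to 90 cells on each of 4 plates) in main and 22.5% (14.4 to 33.5%, 71 cells) in pilot. Plate by plate, the share was 30.8 to 53.2% on the 4 eGFP++ plates, against 17.8 to 24.1% on the 4 unselected main plates and 17.9 and 28.1% on the 2 unselected pilot plates. The intervals cover the counting error of pooled cells and not the spread between plates. Earlier, 11.7% of main and 6.67% of pilot cells were Lhx3-high on Day 5, 1.76% and 0% on Day 4, and no cell on Day 3 or Day 2.

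Both classes carried motor neuron markers. Of the genes Isl1, Slc18a3, Mnx1, Chat and Isl2, at least 1 had a read in all but 6 Lhx3-high cells and all but 15 Lhx3-zero cells, that is in 95.6% of the Lhx3-high cells. At least 2 of them had reads in 82.2% of Lhx3-high and in 63.2% of Lhx3-zero cells. Egfp was read in every Lhx3-high cell and in all but 1 of the Lhx3-zero cells, and Tubb3, a neuronal tubulin, in 93.3% and 90.4%. The markers of motor neurons were thus found in most cells of both classes.

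Markers of the V2 interneurons, the other cell type known for Lhx3, were nearly missing. The V2a factor Sox14 and the V2b factor Gata2 had no read in any cell of either class, which allows up to 2.22% of Lhx3-high and 2.40% of Lhx3-zero cells with a read. Sox21 had reads in 3 Lhx3-high and 2 Lhx3-zero cells, Tal1 in 1 and 0, and Gata3 in 0 and 1. The glial markers Gfap and Aqp4 and the pluripotency marker Zfp42 were at 0 in both classes, and Slc1a3, also a glial marker, had reads in 4 Lhx3-high and 4 Lhx3-zero cells. Other pluripotency markers were read in some cells: Nanog in 20 Lhx3-high (14.8%) and 9 Lhx3-zero cells (7.2%), Dppa5a in 15 (11.1%) and 5 (4.0%), and Pou5f1 in 0 and 1. Olig2, the motor neuron progenitor factor, was read in 20.7% of Lhx3-high and 13.6% of Lhx3-zero cells, and Lhx1, made by lateral motor neurons and several interneurons, in 22.96% and 15.2%. These counts and shares too pool all cells of a class, so plate and genes detected were not held level.

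Since cells with more detected genes have more chances of a Lhx3 read, cells of the classes were paired within plates on gene number. Each pair held 1 Lhx3-high and 1 Lhx3-zero cell. Pairs were chosen together to keep differences small, so a cell need not have its closest partner. This gave 92 pairs: 19 on RPI46, 27 on RPI47, 34 on RPI9 and 12 on TM014. Median genes per paired cell were 3209, 2745, 1687 and 2215 in Lhx3-high cells of these plates, and 3138, 2693, 1709 and 2221 in Lhx3-zero cells. RPI9 stood apart in both classes, with the fewest genes and with spike-ins at 19.4% of reads in Lhx3-high and 19.01% in Lhx3-zero cells, against at most 11.3% in any class of the other plates. Genes, reads and spike-in share of paired cells did not differ detectably between the classes over the 4 plates (two-sided exact permutation tests, p = 0.50, 0.25 and 0.25). The pairing on genes set the first result in advance, and 4 plates cannot give a p below 0.125. Median reads per paired cell were 235463, 189807, 138065 and 476297.5 in Lhx3-high cells, against 210189, 169274, 145163 and 349292 in Lhx3-zero cells. Summed reads of a plate and class ran from 3708500 to 5652945.

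Nefm, the medium neurofilament protein of the axonal skeleton (chr14:68082590-68124846), was the 1 gene called by edgeR with the 2 experiments as replicates. Its level was 2173, 2898, 1700 and 769 CPM in Lhx3-high cells of RPI46, RPI47, RPI9 and TM014, against 5663, 4860, 3649 and 3586 CPM in Lhx3-zero cells. The classes did not overlap: each Lhx3-high value lay below each Lhx3-zero value. Means were 1885 ± 893 CPM in Lhx3-high and 4440 ± 1005 CPM in Lhx3-zero cells (SD, n = 4 plates). With the 2 experiments as replicates, Nefm fell by 1.66 ± 0.29 on the log2 scale (SE; edgeR quasi-likelihood test, adjusted p = 0.0402), as 1 called gene of 10118, or 0.00988%. After thinning each paired cell to 10000 reads, with 1 shallower Lhx3-high cell left out, Nefm was detected in 62 of 91 Lhx3-high and 81 of 92 Lhx3-zero cells.

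The cells between the classes stood with the Lhx3-zero cells in this gene. Over all cells, Nefm was 2249 CPM in main Lhx3-high cells, 5063 CPM in the cells between and 4263 CPM in Lhx3-zero cells, and in pilot 769, 4171 and 5273 CPM. When any Lhx3 read put a cell into the Lhx3-positive class, Nefm was lower by 0.83 on the log2 scale and the call was lost (log2 change -0.83, edgeR adjusted p = 1.0). The call rests on the spread of only 2 experiments. Without the pilot, the 3 main plates gave a log2 change of -1.07 (edgeR, adjusted p = 0.414), the pilot alone gave -2.22 with no test, and with plates as replicates it was -1.36 (adjusted p = 1.0), or -1.47 without RPI9.

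**Figure D2:**
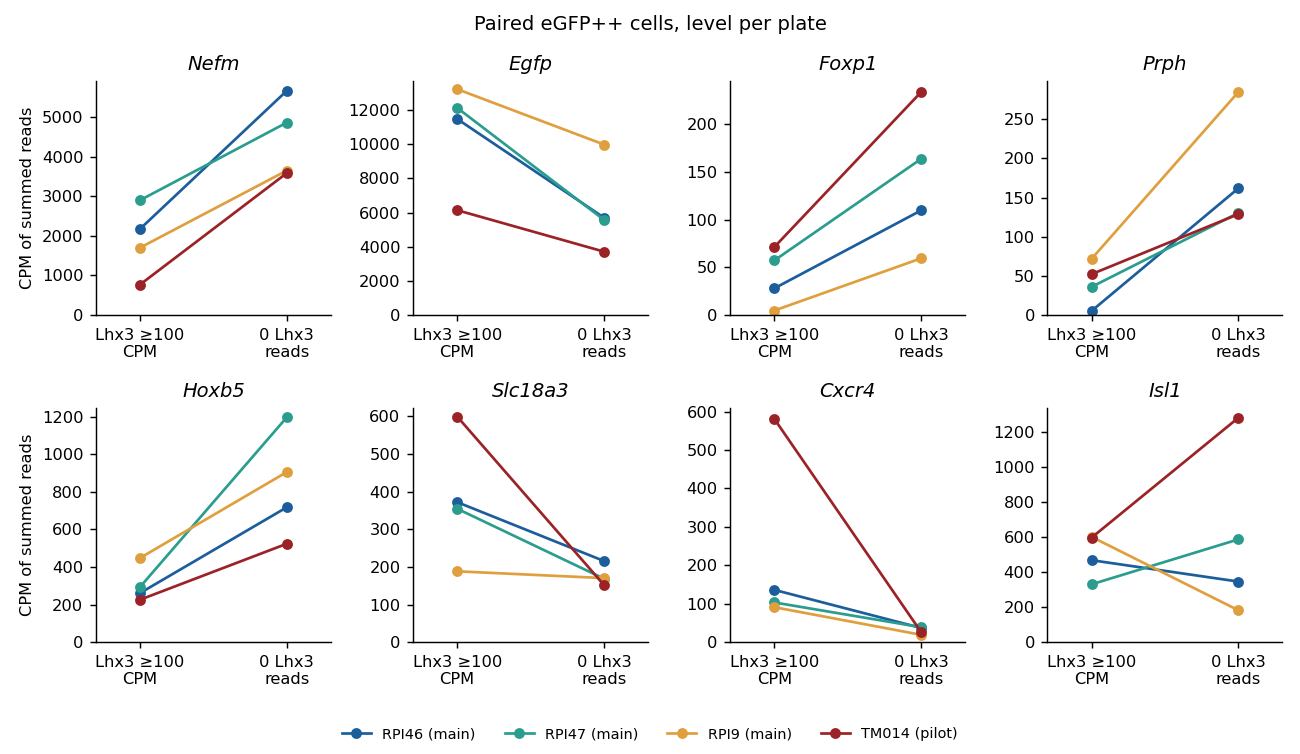
Level of 8 genes in paired eGFP++ cells, as CPM of the summed reads of each plate and class; each line joins the Lhx3-high (left) and Lhx3-zero (right) value of 1 plate, with 12 to 34 cells a point. Nefm, Foxp1, Prph and Hoxb5 are lower and Egfp, Slc18a3 and Cxcr4 higher in Lhx3-high cells on all 4 plates, and Isl1 goes both ways.

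The reporter transcript came closest to the threshold after Nefm. Egfp was at 11477, 12125, 13219 and 6138 CPM in Lhx3-high cells of RPI46, RPI47, RPI9 and TM014, against 5698, 5573, 9979 and 3712 CPM in Lhx3-zero cells. It was the higher in Lhx3-high cells within each plate, while the ranges of the classes overlapped across plates. The log2 change was 0.72 ± 0.13 (SE; edgeR, adjusted p = 0.0623), 0.93 with plates as replicates and RPI9 left out (adjusted p = 1.0). It passed the threshold in 6 of 15 alternative settings. All cells had passed the same eGFP++ sort, and whether sort brightness moved with Lhx3 was not tested.

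Of the 10118 tested genes, 570 (5.63%) were higher and 644 (6.36%) lower in Lhx3-high cells on all 4 plates, without a call beyond Nefm. With each plate as a replicate, edgeR called 0 of 8722 genes (0.0%), with 2.05% of them, 72 higher and the rest lower, at an unadjusted p under 0.05. DESeq2 called 15 genes on the sums per experiment, 1 higher and 14 lower and Nefm not among them (DESeq2 adjusted p = 0.699), and limma on within-plate regressions called 0. The genes described next are those with the smallest p in the plate fit that kept their direction on all 4 plates. None of them passed edgeR's test with experiments or with plates as replicates. Since the plate values chose these genes, a lack of overlap between the classes on the same plates is no added support. The share of all tested genes without such overlap was not counted, here or below. DESeq2 called 4 of the chosen genes, each read in few cells: Hinfp (adjusted p = 0.00169), Cnnm4 (0.0223), Adam22 (0.0323) and Plcl2 (0.0327).

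Among the 10 such genes with higher levels were genes of migration and axon growth. Cxcr4, the chemokine receptor that guides migrating neurons and ventral motor axons, was at 136.1, 103.4, 91.1 and 581 CPM in Lhx3-high cells, against 36.9, 38.9, 19.1 and 25.9 CPM in Lhx3-zero cells (plates in the same order throughout). Every Lhx3-high value was above every Lhx3-zero value, and the log2 change was 3.12 ± 1.42 (SE; edgeR, adjusted p = 1.0). After thinning, 39.6% of Lhx3-high and 19.6% of Lhx3-zero cells had a Cxcr4 read, although 33.1% of its reads in Lhx3-high cells came from 1 cell. Cntn2, the axonal adhesion protein TAG-1 of newly born motor and commissural neurons, was at 2265, 3372, 1827 and 1629 CPM in Lhx3-high cells, against 668, 1894, 1762 and 697 CPM in Lhx3-zero cells.

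Tmsb4x, which encodes the actin-binding peptide thymosin beta 4, was at 12436, 12501, 9881 and 5848 CPM in Lhx3-high cells, against 8006, 6786, 7379 and 5495 CPM in Lhx3-zero cells. Tpd52, a vesicle trafficking protein, was at 753, 679, 752 and 532.5 CPM in Lhx3-high cells, against 336.2, 315.1, 194.3 and 294.3 CPM in Lhx3-zero cells. Of these, Tmsb4x overlapped between classes and Tpd52 did not. Ptprd, a receptor tyrosine phosphatase of axons and synapses, Dynll1, a dynein light chain, Ddah1, which breaks down methylarginines, Cdc73, a subunit of the PAF1 transcription complex, and Fam178a made up the rest with Egfp. Cdc73 had a read in only 6 Lhx3-high and 4 Lhx3-zero paired cells.

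The lower genes included a Hox gene and neuropeptides. Hoxb5, a positional factor of the hindbrain and cervical cord, was at 261.2, 293.5, 448.04 and 225.9 CPM in Lhx3-high cells, against 718, 1198, 906 and 524.1 CPM in Lhx3-zero cells. The classes did not overlap (log2 change -1.37 ± 0.70, SE; edgeR, adjusted p = 1.0), and 58.2% of Lhx3-high and 79.3% of Lhx3-zero cells had a read after thinning. Sst, the neuropeptide somatostatin, was at 31.5, 2.64, 12.5 and 0.18 CPM in Lhx3-high cells, against 163.7, 273.2, 395.3 and 150 CPM in Lhx3-zero cells. A Sst read was left after thinning in 3 of 91 Lhx3-high and 18 of 92 Lhx3-zero cells. Scg2, a granin that yields secretory peptides, was detected in 3 and 21 such cells.

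The other lower genes were carried by few cells. Adam22, a synaptic receptor for LGI proteins, had reads in 2 Lhx3-high and 14 Lhx3-zero paired cells, and Arg1, the arginase of the urea cycle, in 2 and 13. Plcl2, a catalytically inactive phospholipase C relative, had reads in 2 and 9, Cnnm4, a magnesium transporter, in 4 and 9, and Galnt16, a glycosyltransferase, in 1 and 10. Hinfp, a factor of histone gene transcription, had reads in 1 and 6, and 1 Lhx3-zero cell gave 81.9% of its reads.

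**Figure D3:**
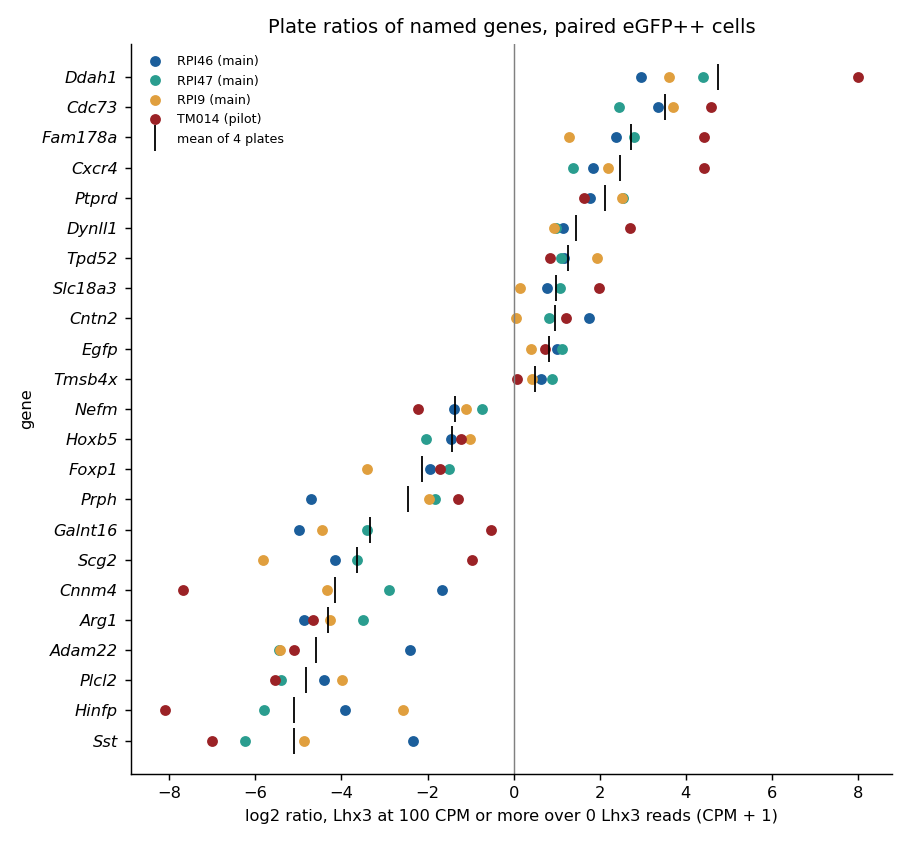
Log2 ratio of Lhx3-high over Lhx3-zero levels (CPM + 1) for the genes named by plate consistency and for Foxp1, Prph and Slc18a3, with 1 point for each of the 4 plates and a bar at their mean. All points of a gene lie on 1 side of 0, which is how most of these genes were chosen, and TM014 lies farthest out for several of them.

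The factors that sort motor neurons into columns were then compared. Foxp1, which directs lateral and limb motor neuron identity, was at 28.02, 57.3, 4.75 and 71.3 CPM in Lhx3-high cells, against 110, 163.8, 59.5 and 233.8 CPM in Lhx3-zero cells. Within each plate the Lhx3-high level was the lower, with some overlap across plates. The log2 change was -1.83 ± 1.64 (SE; edgeR, adjusted p = 1.0). Only a minority of cells held it: 9 of 91 Lhx3-high and 19 of 92 Lhx3-zero cells after thinning. Aldh1a2, the retinoic acid synthesis enzyme of limb-level motor neurons, was at 0.25, 2.64, 0 and 0 CPM in Lhx3-high cells, against 42.6, 74.98, 3.28 and 0 CPM in Lhx3-zero cells, and was read in 3 and 11 paired cells.

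Of the 11 limb and lateral column factors 7 were tested, 0 passed the test and all 7 had fitted changes below 0. Their median log2 change was -1.83, beside -0.01 for all tested genes, of which 5040 had a change above 0. With plates as replicates the median was -0.98, and Gfra1, a GDNF co-receptor, had a fitted change above 0 (0.06). Foxp1 and Pou3f1, a POU factor of lateral motor neurons, were lower on all 4 plates, that is 2 of 7 members against 6.36% of all tested genes. In the sums of the main experiment, Foxp1, Pou3f1, Lhx1 and Ret were lower in Lhx3-high cells. Epha4, Nkx6-1 and Gfra1 were higher there, at 30.9, 7.40 and 27.7 CPM, against 28.1, 4.36 and 26.9 CPM. Their pilot values were 0.88, 1.77 and 8.49 CPM in Lhx3-high cells, against 113.2, 21.98 and 77.8 CPM. For each of them 1 cell gave 57.7, 63.7 and 49.9% of the paired Lhx3-zero reads. The summed level of the 11 genes was 212.4, 216.7, 168.04 and 86.3 CPM in Lhx3-high cells, against 575, 432.3, 244.02 and 510 CPM in Lhx3-zero cells. These ranges did not overlap, and without Foxp1 the sum was still lower in Lhx3-high cells on all 4 plates. Such sums do not by themselves tell fewer cells with a transcript from less of it per cell. After thinning, Foxp1 was read in 9 of 91 Lhx3-high and 19 of 92 Lhx3-zero cells, Pou3f1 in 9 and 14, and Ret in 5 and 14. Lhx1 was read in 11 and 12, Epha4 in 6 and 8, and Nkx6-1 in 1 and 2. Gfra1 went the other way, in 10 and 6. The level per cell was not tested.

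Ret, the GDNF receptor kinase of limb motor pools, was at 18.8, 4.47, 57.2 and 0 CPM in Lhx3-high cells, against 123.5, 49.2, 35.5 and 0 CPM in Lhx3-zero cells, lower on RPI46 and RPI47 and higher on RPI9. Lhx1 was at 66.1, 44.5, 58.5 and 0 CPM in Lhx3-high cells, against 141.6, 21.4, 110 and 0.44 CPM in Lhx3-zero cells. Neither kept 1 direction on all plates.

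Medial column factors other than Lhx3 gave no call. Of 5 listed genes 4 were tested, with a median log2 change of 2.05. Lhx4, the close relative of Lhx3, was at 28.02, 45.5, 7.79 and 39.8 CPM in Lhx3-high cells, against 2.16, 22.5, 9.03 and 0 CPM in Lhx3-zero cells, so RPI9 went the other way. Mecom, a medial column marker, was at most 25.6 CPM in Lhx3-high and 3.24 CPM in Lhx3-zero cells. Fgfr1, the receptor through which medial axons respond to the dermomyotome, was at 0, 16.2, 25.7 and 0.53 CPM in Lhx3-high cells, against 81.2, 42.7, 71.01 and 5.05 CPM in Lhx3-zero cells. It was the lower in Lhx3-high cells on each plate, unlike Lhx4. Of the 9 hypaxial and visceral factors only 3 were tested and 0 called, and their summed level was at most 19.5 CPM in Lhx3-high and 29.7 CPM in Lhx3-zero cells.

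Factors of general motor neuron identity gave no call. Isl1, the LIM partner of Lhx3, was at 468.4, 330, 602 and 597 CPM in Lhx3-high cells, against 346.2, 587, 182.04 and 1282 CPM in Lhx3-zero cells, higher on RPI46 and RPI9 and lower on RPI47 and TM014. After thinning, an Isl1 read was found in 54 of 91 Lhx3-high and in 37 of 92 Lhx3-zero cells, with the higher share in Lhx3-high cells on each plate (68.4, 65.4, 55.9 and 41.7%, against 47.4, 44.4, 38.2 and 25% in Lhx3-zero cells). In the summed reads, 42.5% of the Isl1 reads of Lhx3-zero cells came from 1 cell. Mnx1, which holds back the interneuron programme in motor neurons, was at 38.8, 82.3, 33.3 and 0 CPM in Lhx3-high cells, against 21.03, 31.6, 24.2 and 70.3 CPM in Lhx3-zero cells. Here the 3 main plates agree in direction and the pilot does not.

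Ldb1, the adaptor of the complex, was at 98.6, 94.5, 54.6 and 45.8 CPM in Lhx3-high cells, against 50.4, 74.3, 31.2 and 0.66 CPM in Lhx3-zero cells, higher on every plate. Onecut2, a cut-homeodomain factor of early motor neurons, was at 98.1, 29.05, 107.8 and 36.8 CPM in Lhx3-high cells, against 197.1, 115.9, 110 and 176.9 CPM in Lhx3-zero cells. Lmo1, a LIM-only protein that can bind Ldb1, was at 67.1, 112.1, 108.7 and 0.53 CPM in Lhx3-high cells, against 228.7, 243.4, 245.9 and 0.88 CPM in Lhx3-zero cells. Of the 13 identity factors 10 were tested and 0 called, with 5 changes above 0 and 5 below.

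The summed level of genes of acetylcholine transmission was higher in Lhx3-high cells on 3 of 4 plates, without a call. Slc18a3 was at 372.3, 354.9, 188.4 and 600 CPM in Lhx3-high cells, against 215.7, 168.7, 170 and 151.9 CPM in Lhx3-zero cells. It was higher on each plate, by little on RPI9 (log2 change 1.32 ± 0.95, SE; edgeR, adjusted p = 1.0), and was read after thinning in 61.5% of Lhx3-high and 46.7% of Lhx3-zero cells. Slc10a4, a vesicular protein of cholinergic and monoaminergic neurons, was at 701, 417.6, 420 and 711 CPM in Lhx3-high cells, against 198.7, 223.2, 388.3 and 733 CPM in Lhx3-zero cells. Chat, the acetylcholine-making enzyme, was at 42.3, 23.97, 25.9 and 0 CPM in Lhx3-high cells, against 19.7, 9.12, 12.7 and 74.7 CPM in Lhx3-zero cells.

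Prph, the neurofilament-like peripherin of peripheral axons, was the member of the cholinergic list that lay lower on every plate. Its level was 5.25, 35.95, 71.7 and 52.2 CPM in Lhx3-high cells, against 161.8, 130, 284.6 and 128.8 CPM in Lhx3-zero cells, with no overlap. The log2 change was -1.82 ± 1.75 (SE; edgeR, adjusted p = 1.0), and 12 of 91 Lhx3-high and 27 of 92 Lhx3-zero cells had a read after thinning. Of the 13 listed genes 10 were tested, 0 passed, and the median log2 change was 0.28, with 6 changes above 0.

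Nefm was the 1 called gene among 21 tested pan-neuronal genes, whose median log2 change was -0.56. The summed level of the 22 listed genes was 15827, 15886, 11532 and 14068 CPM in Lhx3-high cells, against 18110, 24303, 18362 and 20507 CPM in Lhx3-zero cells. Without Nefm it was 13654, 12988, 9832 and 13300 CPM in Lhx3-high cells, against 12447, 19443, 14713 and 16922 CPM in Lhx3-zero cells, and so higher in Lhx3-high cells on RPI46. Of the 21, 6 were lower and 2 higher on all 4 plates, beside 6.36% and 5.63% of all tested genes. Stmn2, a microtubule regulator of growing axons, was at 2483, 2024, 1587 and 781 CPM in Lhx3-high cells, against 2232, 3348, 3222 and 1600 CPM in Lhx3-zero cells. Gap43, a growth cone protein, was at 4266, 4142, 2887 and 2761 CPM in Lhx3-high cells, against 3166, 6711, 3680 and 7788 CPM in Lhx3-zero cells. Both were lower on 3 plates and higher on RPI46. Rbfox3, the NeuN splicing factor, was at 413.1, 490, 477.3 and 220 CPM in Lhx3-high cells, against 259.1, 256.99, 164.2 and 6.15 CPM in Lhx3-zero cells, higher on every plate. Not all neuronal genes therefore lay to the same side.

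Of the lists, that of newly born neurons had the most members higher on every plate. Of its 13 tested genes, 4 were higher on all 4 plates, beside 5.63% of all tested genes, 0 were lower on all and 0 were called. The list's summed level was 1809, 1611, 1644 and 1270 CPM in Lhx3-high cells, against 687, 902, 675 and 1830 CPM in Lhx3-zero cells. The sum was thus higher on the main plates and lower on TM014, the pilot plate. Neurod1, a proneural factor of differentiating neurons, was at 145.6, 191.9, 267.1 and 486.3 CPM in Lhx3-high cells, against 91.4, 91.003, 124.98 and 118.5 CPM in Lhx3-zero cells, with no overlap. Neurod4, a related factor, was at 23.5, 57.9, 39.9 and 59.1 CPM in Lhx3-high cells, against 2.16, 0.22, 0 and 11.4 CPM in Lhx3-zero cells. Thinned cells had a Neurod1 read in 42.9% of the Lhx3-high and 20.7% of the Lhx3-zero class, and a Neurod4 read in 10 and 1 cells. The list's median log2 change was -0.15 over experiments and 0.98 over plates, so its sign depended on the fit.

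Hox genes were lower in sum. Those of groups 1 to 3 summed to 590, 669, 464.8 and 412.5 CPM in Lhx3-high cells, against 829, 1134, 680 and 933 CPM in Lhx3-zero cells. Those of groups 4 to 8 summed to 2086, 1805, 1779 and 2107 CPM in Lhx3-high cells, against 2765, 3945, 2630 and 2329 CPM in Lhx3-zero cells. The ranges of both sums did not overlap, but the second rests on Hoxb5, which was named for being lower on all 4 plates. Without Hoxb5 the sum was 1825, 1512, 1331 and 1881 CPM in Lhx3-high cells, against 2047, 2747, 1724 and 1805 CPM in Lhx3-zero cells, with overlap and with TM014 the other way. Of the tested members, 0 of 6 in groups 1 to 3 and 0 of 13 in groups 4 to 8 were called. Not every member lay lower: Hoxa7 was at 70.3, 22.95, 36.9 and 0 CPM in Lhx3-high cells, against 12.7, 0, 0 and 0 CPM in Lhx3-zero cells, and the median over groups 4 to 8 was 0.08 over experiments and -0.56 over plates.

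Axon guidance genes summed to 4749, 5247, 3413 and 4131 CPM in Lhx3-high cells, against 2464, 3190, 3316 and 2101 CPM in Lhx3-zero cells, higher on each plate. Cntn2 made up 1629 to 3372 CPM of this in Lhx3-high and 668 to 1894 CPM in Lhx3-zero cells. Of 18 tested members 0 were called, and 2 were higher and 2 lower on all 4 plates, beside 5.63% and 6.36% of all tested genes. The 11 genes of the response to dissociation, such as Jun and Hspa1a, summed to 136.7 to 781 CPM in Lhx3-high and 433.6 to 865 CPM in Lhx3-zero cells. Their Lhx3-high sum was the lower on every plate. Of 9 tested members 4 were lower and 1 higher on all 4 plates, beside 6.36% and 5.63% of all tested genes. The part of these genes in the differences above was not tested. Cell cycle exit genes summed to 402.8 to 888 CPM in Lhx3-high and 680 to 1129 CPM in Lhx3-zero cells, and cell cycle genes to 320 to 1392 and 466.5 to 667 CPM.

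In the remaining lists 0 members were called as well. Of progenitor genes 14 were tested, with a median log2 change of -0.86 over experiments and -0.39 over plates, and their sums overlapped between classes, at 695 to 1302 CPM in Lhx3-high and 649 to 1672 CPM in Lhx3-zero cells. Cadherins and other adhesion genes had a median of -0.78 over experiments and -0.70 over plates (9 tested genes), and p53 and apoptosis genes of -0.11 and -0.61 (7 genes). Early temporal factors had a median of -2.51 over experiments and -0.70 over plates (4 tested genes), and late ones of 0.12 and -0.07 (2 genes), so the sign of the late list depended on the fit. No V2 interneuron factor and no pluripotency gene had enough reads to be tested, and 2 other interneuron genes, Gad2 and Slc32a1 of inhibitory transmission, were tested. Gad2 was at most 2.28 CPM in Lhx3-high and 25.7 CPM in Lhx3-zero cells. Markers of glia, sensory neurons and endoderm summed to 4.50 to 105.6 CPM in Lhx3-high and 8.35 to 165.03 CPM in Lhx3-zero cells, with 6 of 11 at 0 reads.

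**Figure D4:**
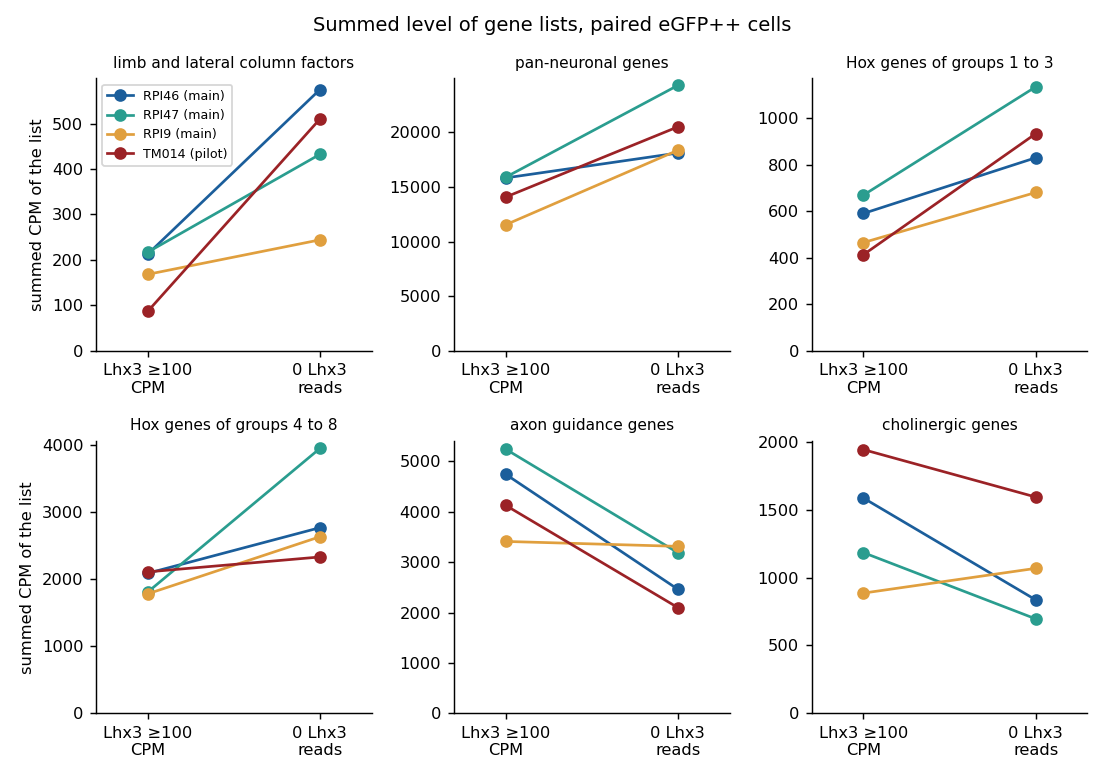
Summed CPM of 6 gene lists in paired eGFP++ cells; each line joins the Lhx3-high (left) and Lhx3-zero (right) sum of 1 plate. Limb and lateral factors, pan-neuronal genes and both Hox lists are lower in Lhx3-high cells on all 4 plates; for pan-neuronal genes this needs Nefm and for Hox groups 4 to 8 it needs Hoxb5, since without them 1 plate goes the other way. Axon guidance genes are higher on all 4, and cholinergic genes are higher on 3 of 4.

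The same comparison was made outside the eGFP++ plates, in unselected Day 6 cells chosen for Isl1 at 100 CPM or more. Of these, 28 pairs were found on 4 main plates, RPI37 to RPI40, and 2 pairs in the pilot, so the test was run over the 4 main plates, a choice made after the data were seen. It called 0 of 5057 genes (0.0%), with 70 higher and 87 lower at an unadjusted p under 0.05.

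Foxp1 was lower in Lhx3-high cells on every plate there too. It was at 0, 0, 2.80 and 0.56 CPM in Lhx3-high cells of RPI37, RPI38, RPI39 and RPI40, against 50.4, 332.2, 395.1 and 40.5 CPM in Lhx3-zero cells, without overlap (edgeR, unadjusted p = 3.46e-04, adjusted p = 0.620). The pilot pairs had 17.2 CPM in Lhx3-high and 168.7 CPM in Lhx3-zero cells. Without pairing, which took in 37 Lhx3-high and 32 Lhx3-zero main cells, the level was 22.1 CPM in Lhx3-high and 165.8 CPM in Lhx3-zero cells, and 22.4 and 94.8 CPM in 6 and 3 pilot cells. The low level in Lhx3-high cells thus depended on which cells were paired, and the direction did not.

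Nefm was at 21.8, 1240, 790 and 2794 CPM in these unselected Lhx3-high cells, against 777, 2751, 581 and 3270 CPM in Lhx3-zero cells, lower on 3 of 4 plates (log2 change -1.19 ± 0.64, SE; edgeR, adjusted p = 1.0). Egfp was at 9421, 13326, 9031 and 10196 CPM in Lhx3-high cells, against 8997, 6199, 8641 and 7930 CPM in Lhx3-zero cells, higher on every plate (log2 change 0.43 ± 0.18, SE; edgeR, adjusted p = 1.0). Hoxb5 was at 300.7, 350, 570 and 294.9 CPM in Lhx3-high cells, against 624, 1299, 407.9 and 629 CPM in Lhx3-zero cells, lower on 3 plates. The 2 pilot pairs had Hoxb5 at 2484 CPM in Lhx3-high and 1947 CPM in Lhx3-zero cells, the other way, and Nefm at 9535 and 9620 CPM. Sst had no read in the Lhx3-high main sum, against 339.4 CPM in the Lhx3-zero sum.

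Some eGFP++ patterns were not seen again. Cxcr4 was at 165.1 CPM in the unselected Lhx3-high main sum and 220.96 CPM in the Lhx3-zero sum, and Cntn2 at 567 and 782 CPM. Slc18a3 was at 232.7 CPM in the unselected Lhx3-high main sum and 237.4 CPM in the Lhx3-zero sum. Of the 10 genes named as higher on all 4 eGFP++ plates, 5 were higher and 5 lower in the unselected Lhx3-high main sum. Of the 10 named as lower, 2 were higher and 8 lower there. The share of all genes higher or lower in that sum was not counted, so these counts have no background beside them. The 2 higher ones were near the floor and not tested there: Cnnm4 at 0.71 CPM in Lhx3-high and 0 CPM in Lhx3-zero cells, and Adam22 at 2.62 and 0 CPM. Of the lower ones, Plcl2 was at 0 and 4.68 CPM, also without a test. Whether eGFP++ and unselected cells differ in these effects was not tested. On the eGFP+ plate only 3 pairs were found, with Egfp at 3308 CPM in Lhx3-high and 2320 CPM in Lhx3-zero cells. Foxp1 was at 31.1 CPM in Lhx3-high and 0 CPM in Lhx3-zero cells there, and Hoxb5 at 85.5 and 45.1 CPM, both the other way from the eGFP++ plates.

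**Figure D5:**
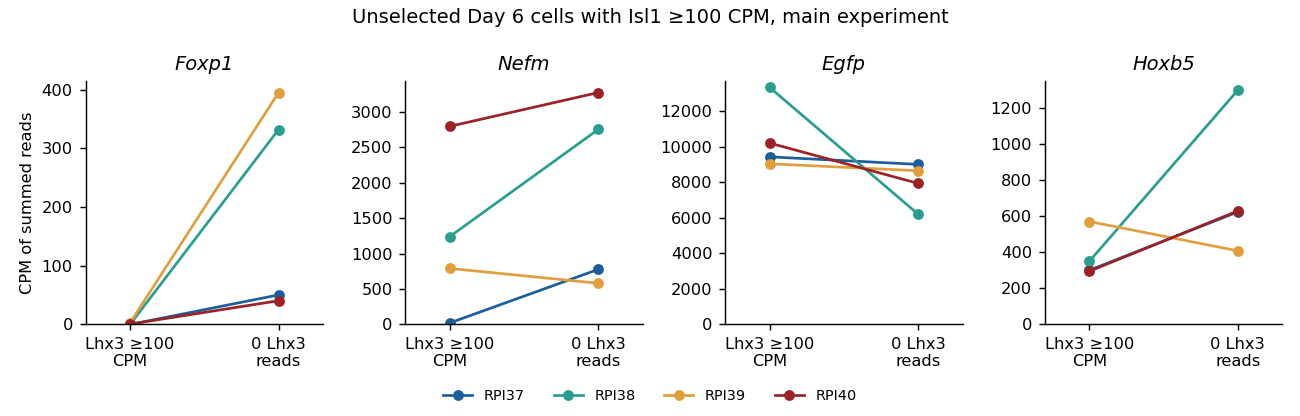
Foxp1, Nefm, Egfp and Hoxb5 in unselected Day 6 cells of the main experiment with Isl1 at 100 CPM or more, as CPM of summed reads; each line joins the Lhx3-high (left) and Lhx3-zero (right) value of 1 plate, with 5 to 9 cells a point. Foxp1 is at or below 2.80 CPM in Lhx3-high cells on all 4 plates, Egfp is higher on all 4, and Nefm and Hoxb5 are lower on 3 of 4.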

How the data were processed

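The deposited tables hold raw read counts per gene and cell, 1 table a plate, made by the authors with CEL-seq; TopHat2 2.1.1, HTSeq 0.6.1 and build mm10 are named, without roles, per the submitters' processing notes. Of 24092 rows, 23968 genes were used; 92 spike-ins, 5 summary rows (34.9% of reads) and 27 names turned into dates were left out. A table of 40 columns matched no sample and was not used.

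Members, lists, tests and alternatives were chosen with earlier results of these data known. Of 328 eGFP++ cells 322 were kept, 135 Lhx3-high, 125 Lhx3-zero and 62 between. Lhx3-high and Lhx3-zero cells were paired within plates by optimal assignment on log2 genes detected, at most 0.5 apart. Their counts were summed per experiment (2 replicates) and tested with edgeR 4.0.16 (quasi-likelihood, filterByExpr, TMM, experiment as a block, Benjamini-Hochberg adjustment, threshold 0.05), in R 4.3.3, after tests on simulated data. Lhx3 counted in library totals but was not tested. Both classes came from the same plates; deviations of same-experiment sums correlated at 0.14 and those of same-plate sums at 0.04 to 0.13. The labels do not say that the plates are separate cultures, so p-values over plates may measure technical spread. DESeq2 1.42.0 and limma 3.58.1 (log2(CPM + 1)) were alternatives. Unadjusted p was under 0.05 for 102 genes with experiments and 179 with plates as replicates. No doublet caller was run, since 1 cell was sorted to a well; no kept cell repeated another's counts.

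Genes named are those called with established names and at least 20 CPM; with fewer than 5 called in a direction, the 10 with the smallest p in the plate fit that kept 1 direction on 4 plates; members of the motor neuron, column, cholinergic and V2 lists; markers; and in each other of 22 hand-written lists the members of smallest p.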

Additional observations from a re-analysis of the deposited data

How the results depend on the processing

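The count of called genes was small throughout and moved with the processing. Against 1 gene (Nefm), 0 were called with plates as sums, with limma and with Lhx3 at 1 read or more. Counts were 15 with DESeq2, without Nefm, 8 with no filter on low counts and 6 with Lhx3 at 300 CPM or more. RLE scaling gave 2 (Nefm, Gap43), thinned cells 2 (Eno2, Ikbkg), cells with at least 1000 genes 2 (Nefm, Egfp), and keeping Lhx3 among the tested genes, an alternative added after seeing the data, also 2 (Nefm, Egfp). Cells with an Isl1 or Mnx1 read gave 4 (Nefm, Egfp, Ptma, Tubb5), as did leaving out cells with V2 factor reads, 4 (Nefm, Egfp, Eno2, Gap43). Several of these names were chosen after their values were seen. Without the replicate block 1 gene was called, Atxn1 and not Nefm; with all cells unpaired it was Nefm. Leaving out the pilot gave 0, leaving out the main experiment left 1 plate and no test, and leaving out each plate in the plate fit gave 0 to 0. Nefm was lower under every alternative run, with adjusted p of 3.87e-08 to 1.0. Among the values of 20 named genes under the alternatives, 3 reversed: Ptprd in cells with an Isl1 or Mnx1 read (-3.70), and Scg2 (2.35) and Galnt16 (1.297) with Lhx3 at 1 read or more; the cause was not tested. Summed without Nefm, pan-neuronal genes were lower in Lhx3-high cells on 3 of 4 plates, and Hox genes of groups 4 to 8 without Hoxb5 likewise; both were added after seeing the data.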
